A study of Mus musculus with 55 samples.

Results

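The genes examined were those of the tumour necrosis factor (TNF) locus, Tnf, Lta and Ltb, and of the TNF receptors, Tnfrsf1a and Tnfrsf1b. Their members were the regions of open chromatin that the authors' annotation gave to one of these genes and placed within 100000 bp of its start. The rule found 33 of 97113 regions: 3 for Tnf, 4 for Lta, 4 for Tnfrsf1a and 22 for Tnfrsf1b. No region was given to Ltb. Each region is named here by its gene and its distance in bp from the start of that gene, negative upstream. All 33 passed the filter on low values for both marks.

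The series measured acetylation of histone H3 at lysine 27 (H3K27ac) and binding of the acetyltransferase p300 by chromatin immunoprecipitation sequencing (ChIP-seq) in bone marrow-derived macrophages of C57BL/6 mice. These cells were grown from marrow with macrophage colony-stimulating factor and then starved of serum overnight, in every group compared here. They received PBS as vehicle, 3'-sialyllactose (3'SL) at 100 µg/ml, bacterial lipopolysaccharide (LPS) at 10 ng/ml, or both agents, for 2 h or 6 h. The comparisons used 15 H3K27ac treatment libraries, 2 in each group except PBS at 6 h with 1, and 14 for p300, with 1 PBS library at each time. Each lone PBS library was replicate 2. The labels also list a replicate 1 for p300 PBS at both times and for H3K27ac PBS at 6 h, which could be matched to no column of the tables and were not analysed here. The labels give neither sex nor age, and nothing in them says that replicates came from separate mice, so p-values measure only the spread between these libraries. For H3K27ac replicate 1, the treatment labels of the LPS, 3'SL and combined libraries titled 2 h read 1 h. For replicate 2, the H3K27ac library titled as both agents at 2 h has a treatment label of vehicle, and the source names of both combined libraries read as input. The titles were followed throughout. PBS2 and PBS6 in the titles were read as PBS at 2 h and 6 h. In such bulk chromatin, signal in fewer cells and less signal per cell cannot be told apart.

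Libraries held 4200716 to 39597624 tags for H3K27ac and 3199270 to 18130439 for p300. The sum of tags over all windows, tested or not, is given as a share of the library, and overlapping windows count a tag again. It was 72.4% to 79.3% in H3K27ac replicate 2 and 53.9% to 64.8% in replicate 1. For p300 it was 20.1% to 27.5% in replicate 2 and 6.12% to 9.42% in replicate 1. The cell identity in the labels was checked on H3K27ac near marker genes: the summed signal of 8 macrophage genes was 11471 to 17958 normalised tags in every library. Lists for other cells gave 321 to 706 for T cells, 615 to 1641 for B cells, 178 to 398 for neutrophils, 766 to 2514 for dendritic cells and 283 to 581 for fibroblasts. Cd3e, Cd3g, Cd79a, Pax5, Dcn and Lum had no region at all.

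TNF is a cytokine that macrophages make within hours of meeting LPS, the lipid of the bacterial outer membrane sensed by Toll-like receptor 4. Lta encodes lymphotoxin alpha, which as a trimer binds the same receptors as TNF, and Ltb encodes lymphotoxin beta, its partner in a membrane-bound complex. Lta, Tnf and Ltb lie side by side within the major histocompatibility complex. Tnfrsf1a encodes TNF receptor 1, which carries a death domain and signals through TRADD and RIPK1. Tnfrsf1b encodes TNF receptor 2, which lacks a death domain and recruits TRAF2. Promoters and enhancers in use carry H3K27ac, which p300 and its close relative CBP place on the histone. 3'SL is a sialylated milk sugar.

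In mm10, Tnf lies at chr17:35199367-35202007, Lta at chr17:35203165-35205578 and Ltb at chr17:35194507-35196305. Tnfrsf1a lies at chr6:125349723-125362483 and Tnfrsf1b at chr4:145212368-145246870. The Tnf regions were its promoter (−65), intron 2 by the authors' annotation (+1370, whose 200 bp window also overlaps a coding exon of Tnf) and a stretch past its 3′ end (+3059) that lies in no gene. The Lta regions were intergenic at −5154, −4924 and −4617, and at −14430 near the end of the neighbouring gene Nfkbil1. The Tnfrsf1a regions were a promoter (−14), introns 1 and 5 (+5109 and +10549) and a site by the end of Scnn1a (−3962). Of the Tnfrsf1b regions, 7 upstream ones lay inside the adjacent receptor gene Tnfrsf8 and 5 inside the RefSeq gene Gm36233; the promoter was at +30, and 9 further regions lay in introns.

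The sequences below are the Tnf promoter, from RefSeq on GRCm38.p6, and, from the mm10 genome, the 200 bp windows of the 5 regions called for p300 under LPS at either time and of the 1 region called lower for H3K27ac. All are read on the minus strand of the genome, which is the coding strand of these genes. Capitals mark matches on either strand to GGNNNTTCC (the core of an NF-kB site, called kB-like), TGANTCA (AP-1) or GAAANNGAA (called ISRE-like). GAGGAAGT (PU.1) and TTGCNNAA (C/EBP) were also searched and had no match in these 7. None of these marked matches overlap.
Tnf promoter, chr17:35202008-35202257: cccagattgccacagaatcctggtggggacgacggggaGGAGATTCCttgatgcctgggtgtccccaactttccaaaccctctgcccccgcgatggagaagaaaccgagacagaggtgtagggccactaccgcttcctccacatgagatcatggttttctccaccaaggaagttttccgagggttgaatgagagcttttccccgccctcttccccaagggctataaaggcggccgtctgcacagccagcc
Tnf +3059, chr17:35198849-35199048: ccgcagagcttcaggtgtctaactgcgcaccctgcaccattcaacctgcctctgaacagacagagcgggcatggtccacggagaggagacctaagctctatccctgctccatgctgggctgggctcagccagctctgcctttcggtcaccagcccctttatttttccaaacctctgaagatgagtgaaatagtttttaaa
Lta −14430, chr17:35219682-35219881: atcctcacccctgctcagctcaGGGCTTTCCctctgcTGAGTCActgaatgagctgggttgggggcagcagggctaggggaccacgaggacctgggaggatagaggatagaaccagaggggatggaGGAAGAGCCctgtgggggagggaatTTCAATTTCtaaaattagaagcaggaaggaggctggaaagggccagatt
Tnfrsf1b −27278, chr4:145274049-145274248: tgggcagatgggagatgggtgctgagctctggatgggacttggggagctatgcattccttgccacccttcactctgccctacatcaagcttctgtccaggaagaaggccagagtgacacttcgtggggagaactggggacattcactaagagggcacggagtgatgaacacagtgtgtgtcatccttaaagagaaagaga
Tnfrsf1b −14638, chr4:145261409-145261608: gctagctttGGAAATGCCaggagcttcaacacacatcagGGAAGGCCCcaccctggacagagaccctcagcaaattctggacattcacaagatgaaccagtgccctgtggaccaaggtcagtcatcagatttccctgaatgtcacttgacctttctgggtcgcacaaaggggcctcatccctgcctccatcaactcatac
Tnfrsf1b −5837, chr4:145252608-145252807: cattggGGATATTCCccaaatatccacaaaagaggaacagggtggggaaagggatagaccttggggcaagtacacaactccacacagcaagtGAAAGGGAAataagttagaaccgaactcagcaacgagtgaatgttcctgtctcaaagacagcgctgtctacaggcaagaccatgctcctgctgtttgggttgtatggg
Tnfrsf1b +14982, chr4:145231789-145231988: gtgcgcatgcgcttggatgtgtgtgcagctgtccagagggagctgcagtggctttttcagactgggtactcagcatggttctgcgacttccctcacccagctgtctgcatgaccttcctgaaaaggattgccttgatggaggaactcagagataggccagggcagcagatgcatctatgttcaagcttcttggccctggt

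The kB-like letters occurred in 7 of the 33 windows (21.2%) against 15.3% of all windows, and in 15.7% of RefSeq promoters of 250 bp. AP-1 letters occurred in 8 windows (24.2% against 17.2%), ISRE-like letters in 7 (21.2% against 7.79%), PU.1 letters in 3 (9.09% against 9.68%) and C/EBP letters in 2 (6.06% against 10.3%). The Tnf promoter above carried 1 kB-like match, which began 212 bp upstream of the start. The Lta −14430 window held 2 kB-like matches, 1 AP-1 match and 1 ISRE-like match and Tnfrsf1b −14638 held 2 kB-like matches, while Tnf +3059, Tnfrsf1b −27278 and Tnfrsf1b +14982 held none of the 5 motifs. These matches are descriptions of the letters and not sites of binding.

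After 2 h of LPS, H3K27ac was higher than with PBS at 3 of 3 Tnf regions and 4 of 4 Lta regions. The 3 Lta windows nearest the gene overlap each other, and Ltb had no region to test. At Tnfrsf1b, 3 regions rose, of which +30 and +668 overlap, and 1 intronic region fell. No single Tnfrsf1a region was called, although the sum over its regions was higher. These calls are from the fit without the replicate number as a block. With that block, 2 of 4 Tnfrsf1a regions and 18 of 22 Tnfrsf1b regions were called, beside 23% of all regions. Values below are tags per library after scaling to a common effective depth, summed over the windows of a gene or given for 1 window, with replicate 1 before replicate 2. Differences are limma estimates on log2(value + 1), each ± its standard error, and p-values were adjusted over all regions or all gene sums tested, with a threshold of 0.05. Sums are not compared between genes, since the number of windows differs. Where libraries with LPS are said to lie above or below those without it, this describes the few libraries of each group. The share of all regions or gene sums that separate in the same way is not given here.

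For Tnf, summed H3K27ac at 2 h was 388 and 262 with PBS, 410.1 and 257 with 3'SL, 891 and 1078 with LPS and 835 and 752 with both. Both libraries with LPS alone lay above every library without LPS. The mean was 325 ± 89.2 (SD, n = 2) with PBS and 985 ± 132 (SD, n = 2) with LPS, a log2 difference of 1.62 ± 0.28 (adjusted p = 0.00995). The sums at 6 h were 425 with PBS, 344 and 362 with 3'SL, 871 and 995 with LPS and 836 and 684 with both. The difference of LPS from the single PBS library was then 1.13 ± 0.34 (adjusted p = 0.198; 0.0426 with the replicate number as a block). The call at 2 h was kept without PBS replicate 1 and lost without each of the other 3 libraries, where the adjusted p was at most 0.0926.

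At the Tnf promoter region (−65), H3K27ac at 2 h was 112 and 54.2 with PBS, 105 and 77.3 with 3'SL, 282 and 320.0 with LPS and 239.9 and 247 with both. The 4 libraries with LPS were all higher than the 4 without it. LPS differed from PBS by 1.93 ± 0.35 (adjusted p = 0.0122). Values at 6 h were 85.9 with PBS, 86.7 and 103 with 3'SL, 319 and 394 with LPS and 291 and 223 with both, again without overlap between libraries with and without LPS, and the difference was 2.03 ± 0.43 (adjusted p = 0.0641; 0.00429 with the block).

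The region inside the gene, Tnf +1370, had the highest mean H3K27ac of the 3. Its values at 2 h were 270.2 and 197 with PBS, 296 and 176 with 3'SL, 525 and 612 with LPS and 494 and 409 with both, with every library given LPS above every library not given it, and the LPS difference was 1.29 ± 0.29 (adjusted p = 0.0266). At 6 h they were 315 with PBS, 248 and 253 with 3'SL, 477 and 540.1 with LPS and 472 and 415 with both, and the difference was 0.69 ± 0.35 (adjusted p = 0.446).

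Past the 3′ end of the gene, region Tnf +3059 was close to empty without LPS and filled with it. H3K27ac at 2 h was 5.51 and 10.2 with PBS, 9.21 and 4.17 with 3'SL, 84.2 and 146 with LPS and 101 and 95.2 with both. LPS differed from PBS by 3.71 ± 0.50 (adjusted p = 0.00396), the largest difference among the 33 regions at 2 h, and the call was kept without any 1 of the 4 libraries. After 6 h its values were 24.8 with PBS, 8.67 and 6.03 with 3'SL, 75.3 and 61.3 with LPS and 73.3 and 46.1 with both. The libraries with LPS were still above those without it, but the PBS library at 6 h was higher than both at 2 h, and the difference was 1.42 ± 0.61 (adjusted p = 0.352).

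Lta was likewise higher with LPS. Its summed H3K27ac at 2 h was 765 and 891 with PBS, 644 and 749 with 3'SL, 2546 and 2827 with LPS and 2380.3 and 1754 with both. Means were 828 ± 89.1 (SD, n = 2) with PBS and 2687 ± 199 (SD, n = 2) with LPS, and the difference of 1.70 ± 0.25 (adjusted p = 0.0051) was called without any 1 of the 4 libraries. The sums at 6 h were 1063 with PBS, 661 and 635 with 3'SL, 2268 and 2317 with LPS and 2003 and 1330.1 with both, with a difference of 1.11 ± 0.31 (adjusted p = 0.156; 0.0264 with the block). All libraries with LPS exceeded all libraries without it at both times. Its 3 nearer windows overlap each other and share tags.

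The far Lta region at −14430, whose sequence is given above, had H3K27ac values at 2 h of 59.7 and 94.1 with PBS, 56.1 and 74.5 with 3'SL, 315 and 436 with LPS and 330.0 and 348 with both. The difference under LPS was 2.29 ± 0.38 (adjusted p = 0.00826), and the call was kept in 2 of the 4 fits that left out 1 library. Values at 6 h were 112 with PBS, 51.4 and 90.5 with 3'SL, 314 and 316 with LPS and 299 and 179 with both, and every library with LPS stood above every one without.

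Of the nearer Lta windows, −4924 had the highest mean, with values at 2 h of 276 and 295 with PBS, 221 and 245 with 3'SL, 795 and 841 with LPS and 720.4 and 516 with both and a difference of 1.52 ± 0.24 (adjusted p = 0.00724). At 6 h it measured 348 with PBS, 226 and 197 with 3'SL, 681 and 699 with LPS and 575 and 419 with both. The window closest to the Lta start, −4617, measured 162 and 218 with PBS, 159.8 and 193 with 3'SL, 684 and 769 with LPS and 636 and 421 with both at 2 h, with a difference of 1.94 ± 0.30 (adjusted p = 0.0061) that was kept without any 1 library. Its values at 6 h were 267 with PBS, 155 and 173 with 3'SL, 608 and 625 with LPS and 551 and 345 with both. The third of these windows, −5154, measured 268 and 284 with PBS, 208 and 236 with 3'SL, 752 and 781 with LPS and 694 and 468 with both at 2 h, a difference of 1.47 ± 0.27 (adjusted p = 0.0129), and 337 with PBS, 229 and 175 with 3'SL, 665 and 677 with LPS and 578 and 387 with both at 6 h. In all 3 windows the libraries with LPS lay above those without it at both times.

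Ltb had no region of its own in the tables used for these comparisons. A region centred at chr17:35195858, inside Ltb, was given to the microRNA gene Mir6973a and ranged from 6.20 to 42.8 normalised tags of H3K27ac. LPS differed from PBS there by 0.68 ± 0.76 at 2 h (adjusted p = 0.71) and 1.85 ± 0.93 at 6 h (adjusted p = 0.441). For p300 the differences at this region were −0.34 ± 0.88 (adjusted p = 0.913) and 1.30 ± 0.88 (adjusted p = 0.69). In the authors' tables built on other region sets, the window 1347 bp upstream of Ltb ranged from 19.04 to 36.2 tags per 10000000 for H3K27ac, where input chromatin gave 9.10 to 14.8. For p300 that window gave 11.1 to 53.5, and the input library gave 6.67, below every treatment library. The window 103 bp upstream had 0 to 10.998 for H3K27ac, and input 2.10 to 2.73. On that same scale the mean H3K27ac sum was 618 for Tnf, where inputs gave 13.7 to 28.7, and for Lta it was 1500.3, where inputs gave 27.998 to 58.8.

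**Figure D1:**
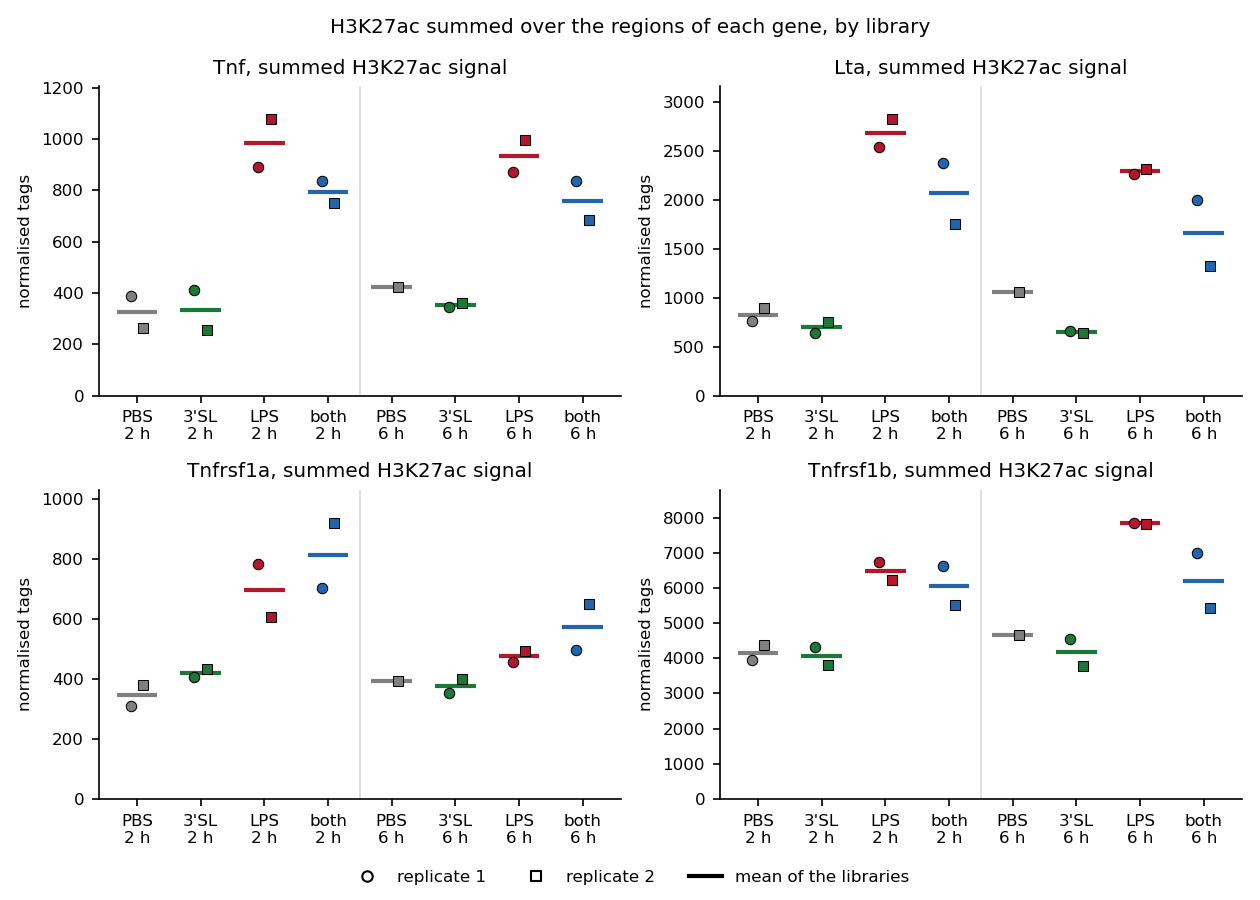
H3K27ac summed over the regions of Tnf, Lta, Tnfrsf1a and Tnfrsf1b, in normalised tags on a linear axis from 0, for each treatment at 2 h and 6 h. Circles are replicate 1, squares replicate 2 and bars the mean of the libraries; the Tnf libraries with LPS lie between 684 and 1078 and those without it between 257 and 425.

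Of the receptors, Tnfrsf1a had summed H3K27ac at 2 h of 312 and 379 with PBS, 408 and 434 with 3'SL, 785 and 607 with LPS and 704 and 921 with both. The 2 libraries with LPS alone lay above all 4 without LPS. Means were 345 ± 47.9 (SD, n = 2) with PBS and 696 ± 126 (SD, n = 2) with LPS, a difference of 1.00 ± 0.24 (adjusted p = 0.0374). The call was lost without any 1 of the 4 libraries and under the authors' own scaling. After 6 h its sums were 394 with PBS, 355 and 400.0 with 3'SL, 457 and 494 with LPS and 496 and 649 with both, and the difference was 0.27 ± 0.30 (adjusted p = 0.799).

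Most of the Tnfrsf1a signal came from its promoter and first intron. The promoter region (−14) measured 212 and 230.0 with PBS, 275 and 259 with 3'SL, 466 and 323 with LPS and 429 and 456 with both at 2 h. LPS alone differed from PBS by 0.81 ± 0.24 (adjusted p = 0.0819), and LPS with 3'SL differed by 1.00 ± 0.24 (adjusted p = 0.048). At 6 h it measured 217 with PBS, 212 and 229 with 3'SL, 279 and 269 with LPS and 294 and 316 with both, a narrow range in which the highest libraries were still those with LPS.

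The first intron region of Tnfrsf1a, +5109, carried the highest p300 of the gene. H3K27ac there at 2 h was 66.2 and 118 with PBS, 87.9 and 140.2 with 3'SL, 261 and 249 with LPS and 218 and 426 with both, with a difference under LPS of 1.52 ± 0.45 (adjusted p = 0.0781; 0.000495 with the block). At 6 h it was 139 with PBS, 99.4 and 137 with 3'SL, 133 and 197 with LPS and 159 and 280.2 with both, where the libraries with and without LPS overlapped. The other Tnfrsf1a regions were low: −3962 and +10549 held 0 to 45.4 tags in all 15 libraries, and their differences under LPS at 2 h were 0.33 ± 1.23 and 0.33 ± 0.50.

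Tnfrsf1b, with 22 regions, changed in opposite directions at different places. Of its H3K27ac windows, 6 pairs overlap and share tags, so its sum counts some tags more than once. Its summed H3K27ac at 2 h was 3939 and 4388 with PBS, 4317 and 3804 with 3'SL, 6732 and 6219.6 with LPS and 6626 and 5500.5 with both. Libraries with LPS were above those without it, and the difference of the sum was 0.64 ± 0.23 (adjusted p = 0.142; 0.0142 with the block). The sums at 6 h were 4675 with PBS, 4536 and 3793 with 3'SL, 7854 and 7808 with LPS and 6985 and 5425 with both, a difference of 0.74 ± 0.28 (adjusted p = 0.311; 0.0688 with the block).

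At the Tnfrsf1b promoter (+30), H3K27ac at 2 h was 266 and 251 with PBS, 262 and 236 with 3'SL, 537 and 476 with LPS and 486 and 419 with both. LPS differed from PBS by 0.96 ± 0.24 (adjusted p = 0.0436), and at 6 h the values were 269 with PBS, 304 and 233 with 3'SL, 499 and 439.6 with LPS and 458 and 352 with both. Just inside the first intron, +668 measured 345 and 327 with PBS, 334 and 268 with 3'SL, 754 and 724 with LPS and 705 and 559 with both, a difference of 1.14 ± 0.27 (adjusted p = 0.0331), and 327 with PBS, 382 and 251 with 3'SL, 754 and 781 with LPS and 706 and 511 with both at 6 h. Both regions, whose windows overlap and share tags, separated the libraries with and without LPS at both times.

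Upstream, −11440, whose window overlaps that of −10664, rose in the same way. Its H3K27ac at 2 h was 237 and 237 with PBS, 277 and 128 with 3'SL, 587 and 643 with LPS and 610.2 and 511 with both, a difference of 1.37 ± 0.34 (adjusted p = 0.0401), and at 6 h it was 233 with PBS, 298 and 201 with 3'SL, 643 and 694 with LPS and 539 and 468 with both. The neighbour −10664, the region of highest mean for this gene, measured 345 and 282 with PBS, 372 and 156 with 3'SL, 868 and 786 with LPS and 843 and 678 with both at 2 h and 282 with PBS, 359 and 229 with 3'SL, 925 and 947 with LPS and 828 and 652 with both at 6 h. Libraries with LPS were all higher there too, but LPS against PBS was not called at 2 h (1.40 ± 0.37, adjusted p = 0.0527; 0.000654 with the block).

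Deeper in the gene the direction turned. At +14982, in the first intron, H3K27ac at 2 h was 85.5 and 79.7 with PBS, 73.6 and 106 with 3'SL, 22.2 and 30.4 with LPS and 27.1 and 54.1 with both. It fell by 1.63 on the log2 scale under LPS (SE 0.40, adjusted p = 0.0413), and every library with LPS was below every library without it. Values at 6 h were 107 with PBS, 92.1 and 90.5 with 3'SL, 37.6 and 28.7 with LPS and 32.1 and 37.1 with both, with the same order of libraries. The intronic regions +12684, +12940, +17533 and +24562 had differences of −1.12, −1.28, −1.70 and −1.98 at 2 h, which passed the threshold with the block (adjusted p = 0.00486, 0.00143, 0.00192 and 0.000527) and not without it. The 7 regions from +5682 to +24562 were all below 0 and the 15 from −31127 to +3954 all above 0, in the order shown in the plot of differences by region. The calls at −11440, +30, +668 and +14982 were each lost without any 1 of the 4 libraries.

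Far upstream, within Tnfrsf8, −27278 rose from a very low level. H3K27ac at 2 h was 30.3 and 5.11 with PBS, 15.1 and 6.94 with 3'SL, 144 and 71.7 with LPS and 119.6 and 40.7 with both, and at 6 h 2.66 with PBS, 34.7 and 6.03 with 3'SL, 234 and 259.6 with LPS and 176 and 106 with both. At 6 h the difference was 6.08 ± 1.10 (5.45 with the block; adjusted p = 0.0375), and it was the single member region called at that time. It rests on 3 tags in the only PBS library: the ratio of pooled LPS libraries to it was 91.4, with a 95% counting interval of 31.1 to 444. The call was lost without either LPS library and under edgeR.

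In the LPS comparison at 2 h, 11 of the 33 regions (10 higher, 1 lower) were called for H3K27ac, where 5.14% of all tested regions were called, 3.08% higher and 2.07% lower. With the block, 27 were called (22 higher, 5 lower) beside 23% of all regions (11.8% higher, 11.2% lower). The median difference of the 33 was 1.28, beside 0.01 for all regions. Of the 4 gene sums, 3 were called beside 5.8% of all gene sums, and with the block 4 beside 23.4%. Without any 1 of the 4 libraries, 2 to 4 regions were called (fewest, 2, without LPS replicate 2; 3 without PBS replicate 2; 4 without either of the others). Under the authors' scaling 6 were called, each at Tnf or Lta.

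At 6 h, 1 region was called, beside 0.677% of all regions (0.545% higher, 0.132% lower), and 0 without either LPS library. With the block the number was 23 (17 higher, 6 lower) beside 9.18% (5.07% higher, 4.11% lower). No gene sum was called beside 0.57% of all, and 2 with the block beside 7.84%. The median of the 33 was 1.03 against −0.01 for all regions. LPS at 6 h against LPS at 2 h gave 0 called of the 33 for either mark (0% of all regions), and 0 with the block beside 1.78% for H3K27ac and 0.154% for p300.

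**Figure D2:**
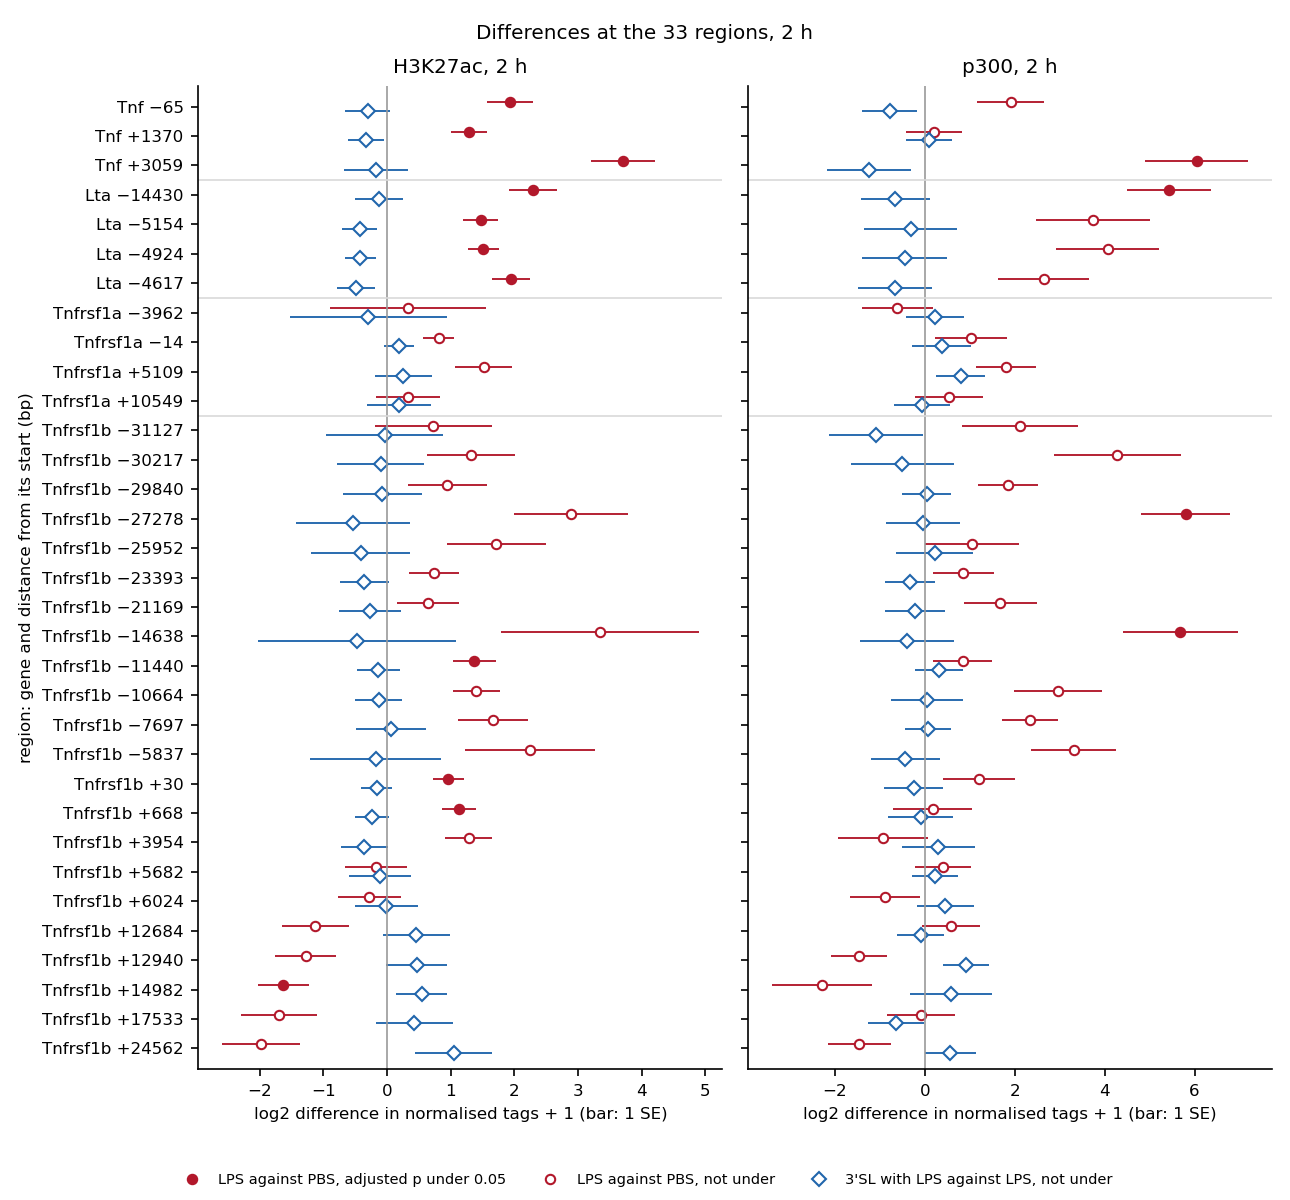
Differences at the 33 regions at 2 h on the log2 scale, for H3K27ac and p300: circles are LPS against PBS, diamonds 3'SL with LPS against LPS, bars 1 SE, and filled symbols an adjusted p under 0.05. The circles of Tnf, Lta and upstream Tnfrsf1b lie to the right of 0, those from Tnfrsf1b +5682 onward lie to the left for H3K27ac, and none of the diamonds is filled.

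p300 binding at 2 h of LPS was higher at 4 of the 33 regions, all distal: Tnf +3059, Lta −14430, Tnfrsf1b −27278 and Tnfrsf1b −14638. With 1 PBS library per time, these tests take the spread of the vehicle from the groups that have 2 libraries. Each of these PBS libraries is replicate 2, while the LPS groups hold both replicates. Without the block, the difference from PBS therefore mixes LPS with replicate number. The H3K27ac comparison with PBS at 6 h shares this limit. The PBS library at 2 h held 0 to 4 tags at these regions, so ratios of tags are given beside the fitted differences, with intervals that cover counting error only. Under the authors' scaling and under edgeR, none of the 33 regions was called, nor was the Lta sum. On simulated data, the fit with the block made more false calls for p300 than its threshold allows. All p300 calls and adjusted p-values given with the block carry that limit.

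Summed p300 over the Tnf regions at 2 h was 119 with PBS, 148 and 67.1 with 3'SL, 456 and 308 with LPS and 398 and 143 with both. The libraries with both agents spanned the range from near PBS to near LPS. LPS differed from PBS by 1.65 ± 0.63 (adjusted p = 0.248; 0.0301 with the block). After 6 h its sums were 139 with PBS, 126 and 90.1 with 3'SL, 196 and 157 with LPS and 241 and 136 with both. The difference was 0.33 ± 0.63 (adjusted p = 0.933), and −0.066 with the block. At its promoter region −65, p300 was 64.8 with PBS, 73.6 and 32.3 with 3'SL, 316 and 192 with LPS and 267 and 76.4 with both at 2 h and 69.02 with PBS, 51.2 and 37.2 with 3'SL, 114 and 85.4 with LPS and 146 and 70.97 with both at 6 h. The difference at the promoter at 2 h was 1.91 ± 0.75 (adjusted p = 0.228). Inside the gene, +1370 ranged from 32.3 to 86.9 tags over all 14 libraries.

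At Tnf +3059, p300 at 2 h was 0 with PBS, 8.45 and 2.39 with 3'SL, 66.1 and 63.9 with LPS and 43.5 and 16.5 with both. With 0 tags in the PBS library and a floor of 3 tags, LPS was at least 12.0-fold higher over both LPS libraries and at least 11.8-fold higher within replicate 2. Its adjusted p was 0.0102, which without either LPS library was 0.0627 or 0.0719. The values at 6 h were 0.908 with PBS, 2.33 and 4.29 with 3'SL, 26.6 and 18.1 with LPS and 31.4 and 3.15 with both, and the highest were again in libraries with LPS.

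For Lta, summed p300 at 2 h was 37.8 with PBS, 152 and 45.5 with 3'SL, 1259 and 454 with LPS and 878 and 309 with both. All 4 libraries with LPS exceeded all 3 without it, and replicate 1 was higher than replicate 2 in every treated group. The difference was 4.29 ± 0.93 (adjusted p = 0.0385; 3.57 with the block, adjusted p = 1.55e-07), and without either LPS library it was not called. Sums at 6 h were 85.4 with PBS, 139 and 83.7 with 3'SL, 709 and 281 with LPS and 731 and 199 with both, a difference of 2.37 ± 0.93 (adjusted p = 0.522; 1.65 with the block, adjusted p = 0.00718).

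The region Lta −14430, with its 2 kB-like matches, had the highest mean p300 of the Lta regions: 7.20 with PBS, 41.04 and 32.3 with 3'SL, 549.7 and 224 with LPS and 366 and 135 with both at 2 h and 35.4 with PBS, 53.5 and 42.9 with 3'SL, 313 and 92.9 with LPS and 293 and 48.9 with both at 6 h. At 2 h the difference was 5.43 ± 0.93 (4.79 with the block; adjusted p = 0.00512), and 0.0607 without LPS replicate 1. The ratio of tags was 54.4 (21.2 to 200) over both LPS libraries and 31.2 (12.0 to 116) within replicate 2. It rests on 4 tags in the PBS library at 2 h, whose 7.20 was below both 3'SL libraries and the PBS library at 6 h. At 6 h the ratio over both LPS libraries was 4.86 (3.46 to 7.00). At −4924 p300 was 10.8 with PBS, 31.4 and 1.20 with 3'SL, 334 and 115 with LPS and 218 and 93.9 with both at 2 h and 12.7 with PBS, 20.95 and 10.01 with 3'SL, 165 and 70.4 with LPS and 197 and 85.2 with both at 6 h, a difference of 4.06 ± 1.15 at 2 h (adjusted p = 0.0807; 3.23 with the block, adjusted p = 0.000826). The windows −5154 and −4617 differed by 3.73 and 2.64 (2.76 and 1.88 with the block) and were called with the block only.

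**Figure D3:**
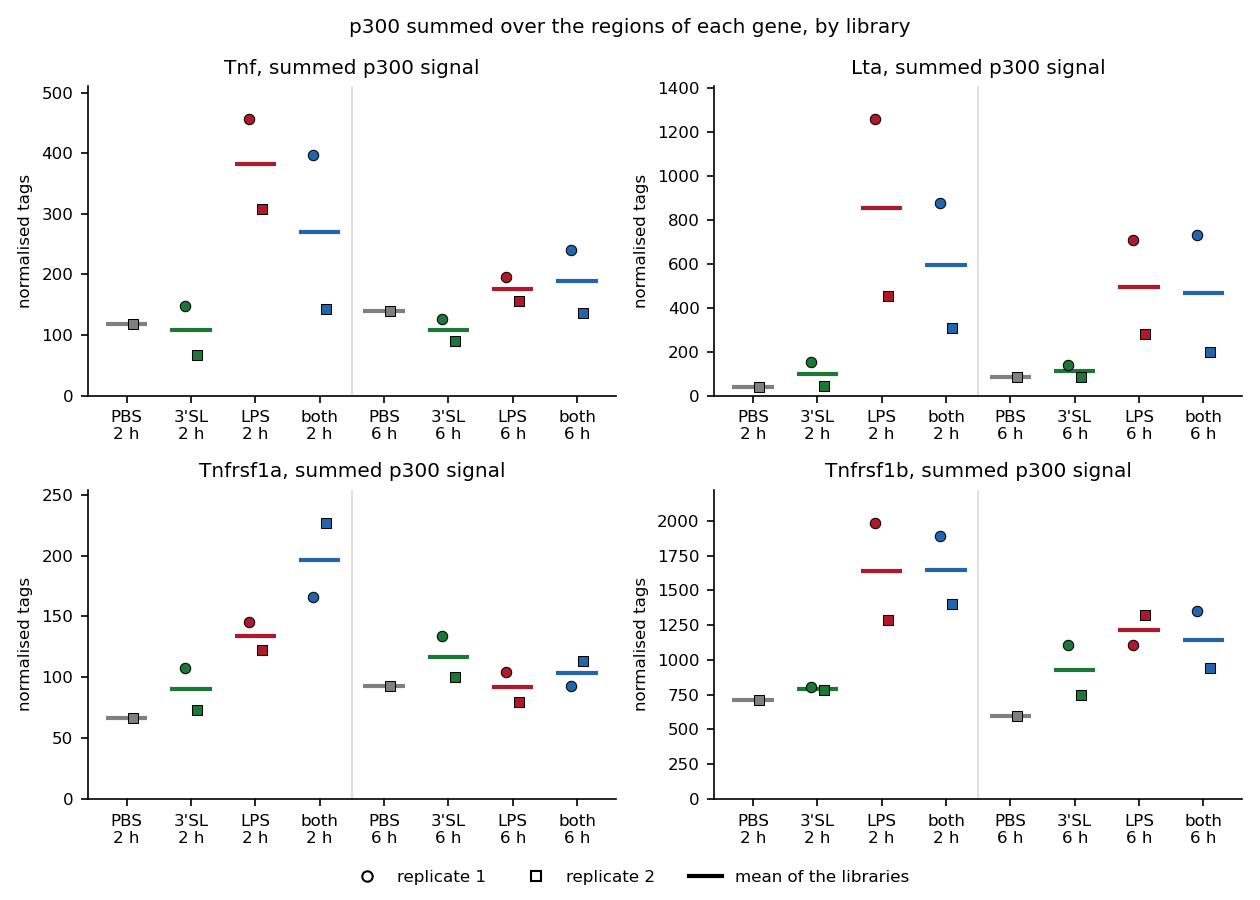
p300 summed over the regions of each gene, in normalised tags on a linear axis from 0, with circles for replicate 1, squares for replicate 2 and bars for the mean. PBS is a single library at each time; for Lta the libraries with LPS at 2 h span 309 to 1259 and those without it 37.8 to 152.

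Tnfrsf1a had summed p300 of 66.6 with PBS, 107 and 73.05 with 3'SL, 145 and 123 with LPS and 166 and 227 with both at 2 h and 92.6 with PBS, 134 and 100.1 with 3'SL, 104 and 80.1 with LPS and 93.2 and 114 with both at 6 h. Its difference under LPS was 0.99 ± 0.44 at 2 h (adjusted p = 0.339) and −0.02 ± 0.44 at 6 h (adjusted p = 0.995). At +5109, p300 was 19.8 with PBS, 56.7 and 23.9 with 3'SL, 84.9 and 60.2 with LPS and 103 and 151 with both at 2 h, with all libraries given LPS above the others, and 39.1 with PBS, 58.2 and 40.04 with 3'SL, 43.7 and 27.8 with LPS and 48.9 and 77.3 with both at 6 h, with overlap. The promoter region held 9.29 to 30.4 tags over the 14 libraries.

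Tnfrsf1b had summed p300 of 711 with PBS, 803 and 786 with 3'SL, 1988 and 1288 with LPS and 1888 and 1405 with both at 2 h. Every library with LPS was above every one without it, and the difference was 1.17 ± 0.44 (adjusted p = 0.238; 0.0463 with the block). After 6 h its sums were 600.3 with PBS, 1107 and 751 with 3'SL, 1109 and 1322 with LPS and 1352 and 940.0 with both, with a difference of 1.01 ± 0.44 (adjusted p = 0.577) and overlap between the treatments.

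Inside Tnfrsf8, −27278 had p300 of 0 with PBS, 8.45 and 0 with 3'SL, 55.4 and 53.9 with LPS and 48.9 and 57.8 with both at 2 h and 4.54 with PBS, 9.31 and 7.15 with 3'SL, 56.99 and 73.6 with LPS and 37.3 and 29.97 with both at 6 h. LPS was at least 10.1-fold higher at 2 h over both LPS libraries and at least 9.98-fold higher within replicate 2 (adjusted p = 0.0052), and the call was kept without either LPS library. At −14638, inside Gm36233, p300 was 1.80 with PBS, 2.41 and 3.59 with 3'SL, 219 and 92.7 with LPS and 212 and 54.7 with both at 2 h and 0.908 with PBS, 4.66 and 0.715 with 3'SL, 150.1 and 93.9 with LPS and 133 and 6.31 with both at 6 h. The PBS library held 1 tag at 2 h; the ratio was 87.8 (15.6 to 3481) over both LPS libraries and 51.5 (8.97 to 2063) within replicate 2, and the call at 2 h (adjusted p = 0.0274) was lost without either LPS library. Its difference at 6 h, 5.97 (5.19 with the block), was the largest of the 33 at that time and was not called without the block (adjusted p = 0.0518; 0.000267 with it).

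The region −5837, which holds a kB-like and an ISRE-like match, was the single one called for p300 at 6 h. Its values were 0.908 with PBS, 33.8 and 4.29 with 3'SL, 75.99 and 41.6 with LPS and 59.4 and 25.2 with both at 6 h and 7.20 with PBS, 12.1 and 10.8 with 3'SL, 93.2 and 68.9 with LPS and 89.1 and 39.2 with both at 2 h. The difference at 6 h was 4.91 ± 0.95 (adjusted p = 0.033). It rests on 1 tag in the PBS library, with a ratio of 59.4 (10.4 to 2377) over both LPS libraries and 45.8 (7.76 to 1856) within replicate 2, and was lost without either LPS library. The 3'SL library of replicate 1 held 33.8, so the libraries with and without LPS overlapped.

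Other upstream Tnfrsf1b regions were high in p300. The region −11440 measured 112 with PBS, 107 and 76.6 with 3'SL, 306 and 132 with LPS and 304 and 206 with both at 2 h and 39.1 with PBS, 147 and 65.8 with 3'SL, 137 and 245 with LPS and 233 and 224 with both at 6 h, the highest mean of the gene. At −7697 p300 was 53.99 with PBS, 54.3 and 27.5 with 3'SL, 298 and 259 with LPS and 247 and 343 with both at 2 h and 34.5 with PBS, 61.7 and 27.2 with 3'SL, 123 and 190.0 with LPS and 153 and 131 with both at 6 h, and at −10664 it was 12.6 with PBS, 14.5 and 1.20 with 3'SL, 129.7 and 85.2 with LPS and 96.7 and 122 with both and 16.3 with PBS, 32.6 and 11.4 with 3'SL, 34.2 and 116 with LPS and 55.9 and 39.4 with both. Both separated the libraries with LPS from those without it, and LPS against PBS was called with the block at 2 h (adjusted p = 0.00324 and 0.0255) and not without it (0.0632 and 0.143). In the intron, +12940 went the other way, with 106 with PBS, 101 and 194 with 3'SL, 35.4 and 40.1 with LPS and 60.8 and 85.7 with both at 2 h and 105 with PBS, 119.9 and 116 with 3'SL, 11.4 and 23.5 with LPS and 29.1 and 29.97 with both at 6 h, and at 6 h it was called lower with the block (−2.40, adjusted p = 0.00481).

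**Figure D4:**
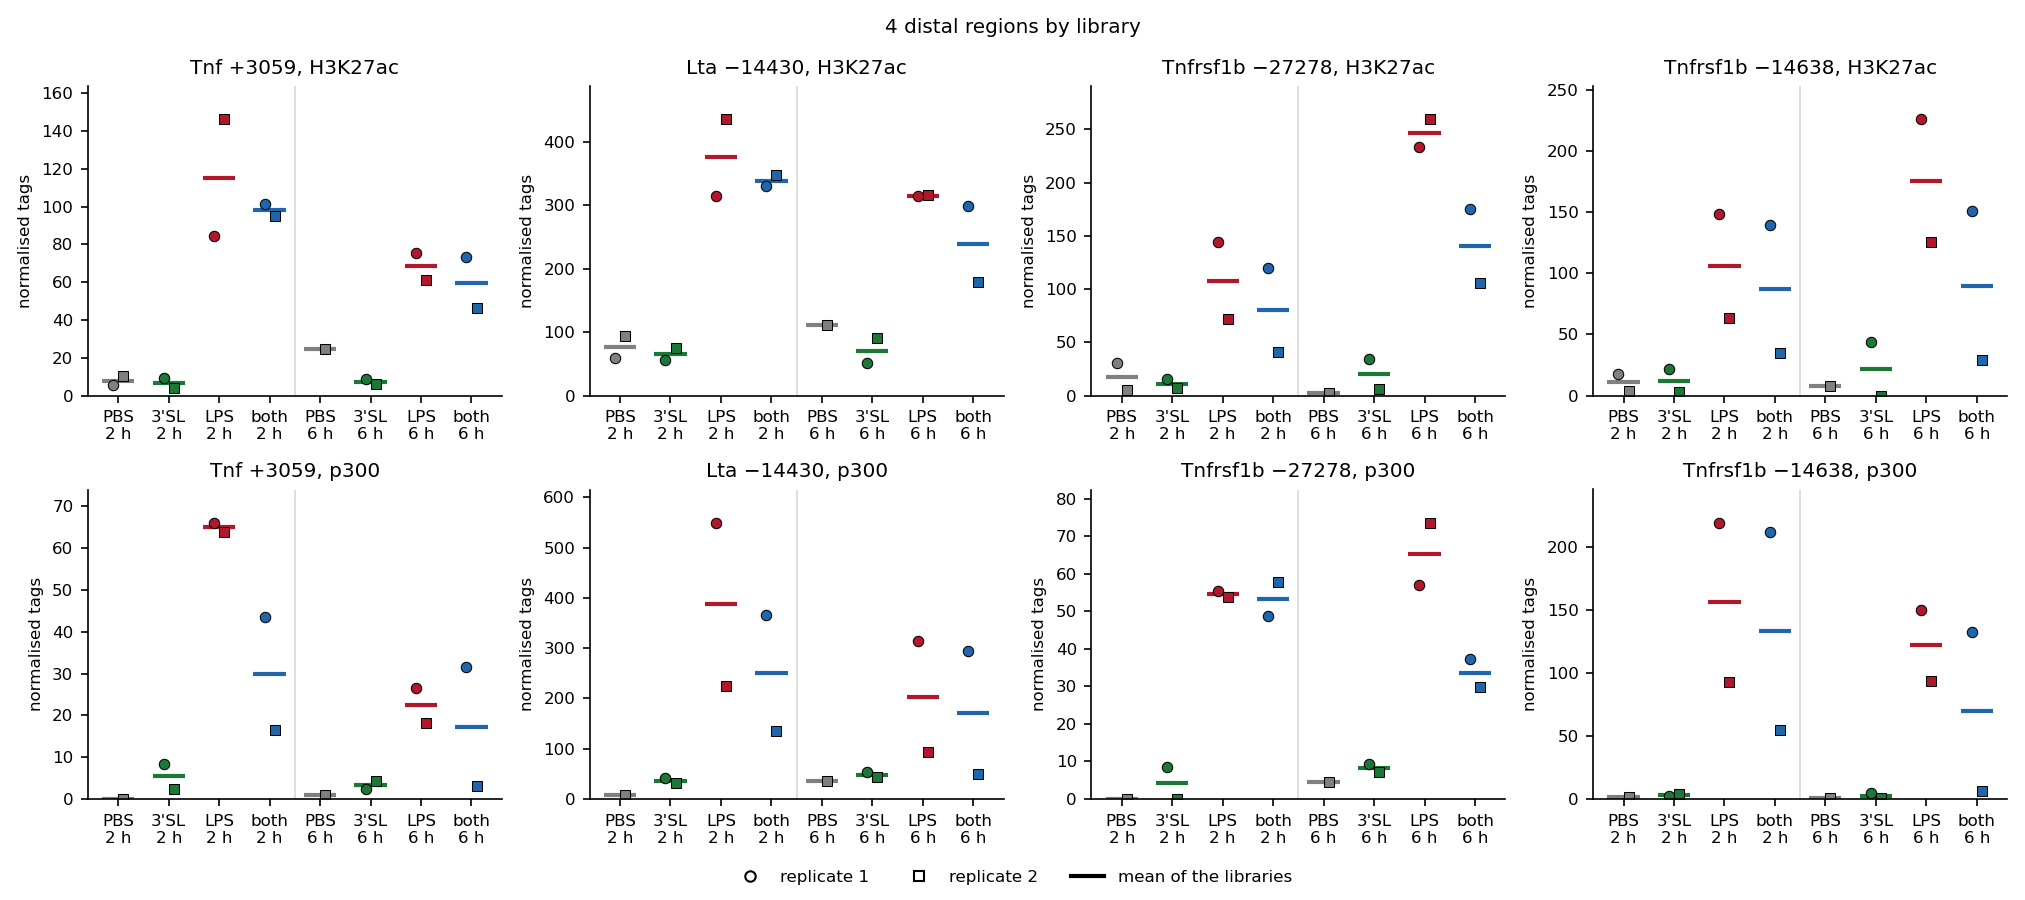
H3K27ac (top) and p300 (bottom) in normalised tags, on linear axes from 0, at Tnf +3059, Lta −14430, Tnfrsf1b −27278 and Tnfrsf1b −14638, with circles for replicate 1, squares for replicate 2 and bars for the mean of the libraries. At Tnf +3059 p300 is 0 with PBS at 2 h and 66.1 and 63.9 with LPS.

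The 4 regions called for p300 at 2 h stand beside 2.2% of all tested regions (2.05% higher, 0.146% lower). Without LPS replicate 1 there was 1 and without LPS replicate 2 there were 2. With the block, 10 were called, all higher, beside 7.11% (5.62% higher, 1.49% lower). The median of the 33 was 1.20 against 0.11 for all regions. At 6 h, 1 was called beside 0.41% (0.387% higher, 0.0225% lower), and with the block 7 (6 higher, 1 lower) beside 2.5% (2.02% higher, 0.476% lower), with a median of 0.51 against −0.05. Of the gene sums, Lta was called at 2 h beside 1.59% of all, and 3 of the 4 with the block beside 8.68%; at 6 h none was called beside 0.132%, and Lta with the block beside 2.58%. Across the 33 regions, the differences under LPS at 2 h in the 2 marks had a Pearson r of 0.822 and a Spearman rho of 0.823, a description over regions that share libraries and in part overlap. LPS at 6 h was below LPS at 2 h at 27 of the 33 regions for p300, with a median of −0.50 beside −0.05 for all regions, and at 12 of 33 for H3K27ac.

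The question of the design was how 3'SL alters the response to LPS. For these genes, none of the 33 regions and none of the 4 gene sums was called between 3'SL with LPS and LPS alone, for either mark or time, with or without the block, and 0% of all regions and of all gene sums were called. edgeR and DESeq2 called 0 member regions as well. At an unadjusted p under 0.05 there were 0 regions for H3K27ac at either time (1 at 2 h and 4 at 6 h with the block) and, for p300, 0 at 2 h and 2 at 6 h (2 and 3 with the block). The share of all regions under that unadjusted threshold is not given here.

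Most H3K27ac differences from LPS alone were below 0, and none was called. This held at 24 of the 33 regions at 2 h and at 24 at 6 h. The medians were −0.14 and −0.35, beside 0.01 and 0.04 for all regions. These regions share libraries and in part overlap, and 22 belong to Tnfrsf1b. The share of all regions below 0 is not given here. For Tnf the sums with both agents were below both LPS libraries at each time, and the difference was −0.31 at 2 h (95% interval −0.92 to 0.31) and −0.30 at 6 h (−0.92 to 0.32). For Lta the sums with both agents were likewise below both LPS libraries, by −0.39 (−0.94 to 0.16) and −0.49 (−1.04 to 0.06). Each of these intervals includes 0, and with 2 libraries in each group they span more than 1 on the log2 scale. The order of combined below LPS libraries was not tested, and the share of all gene sums showing it is not given here. Leaving out 1 library, the differences at 2 h ranged from −0.45 to −0.17 for Tnf and from −0.62 to −0.18 for Lta. With the block the interval for Lta at 6 h was −0.94 to −0.036, which leaves out 0, and its unadjusted p of 0.0365 did not pass the adjustment over all gene sums; the other 3 included 0.

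The receptors did not share 1 direction. Tnfrsf1a had H3K27ac differences of 0.22 at 2 h (−0.31 to 0.76) and 0.26 at 6 h (−0.28 to 0.79), with the libraries overlapping at 2 h. Tnfrsf1b had −0.10 (−0.60 to 0.40) and −0.35 (−0.85 to 0.15), with overlap at 2 h and both combined libraries lower at 6 h. Replicate 2 of the combined treatment was the lower of its pair for Tnf, Lta and Tnfrsf1b at both times, and the higher for Tnfrsf1a. Labels of these replicate 2 libraries differ from their titles, and so do labels of the treated replicate 1 libraries titled 2 h. Whether this bears on the values was not tested.

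In p300 the intervals were wider. The differences at 2 h were −0.65 for Tnf (−1.76 to 0.46), −0.54 for Lta (−2.18 to 1.11), 0.54 for Tnfrsf1a (−0.23 to 1.31) and 0.03 for Tnfrsf1b (−0.74 to 0.80). At 6 h they were 0.05 (−1.06 to 1.15), −0.23 (−1.87 to 1.42), 0.17 (−0.60 to 0.94) and −0.10 (−0.87 to 0.67) in the same order. Every one of these 8 intervals included 0. With the block the interval for Tnf at 2 h was −1.25 to −0.051, below 0, and its unadjusted p of 0.0345 did not pass the adjustment either; the other 7 included 0.

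In the presence of 3'SL, LPS was still followed by higher H3K27ac. Against 3'SL alone at 2 h, 7 of the 33 regions were called, all higher, beside 2.46% of all regions; with the block 29 were called beside 16.2%. The 7 were Tnf +3059 (3.77 ± 0.50, adjusted p = 0.00608), the 4 Lta regions, and Tnfrsf1b −11440 and −10664. Without 1 library the number was 3 (3'SL replicate 1 left out) or 0 (any other), and under the authors' scaling it was 2. At 6 h, 1 was called, Tnf +3059 (2.84 ± 0.50, adjusted p = 0.033), beside 0.645%, 0 without any 1 library, and 26 with the block beside 9.76%.

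For p300, 3'SL with LPS against 3'SL at 2 h called 5 regions, all higher, beside 1.22%: Lta −4924 and Tnfrsf1b −27278, −14638, −10664 and −7697. The smallest adjusted p among them was that of −7697 (2.88 ± 0.51, adjusted p = 0.00879). Both groups have 2 libraries here. The number was 5 without 3'SL replicate 1, 1 without combined replicate 1, and 0 without replicate 2 of either group or under the authors' scaling. With the block there were 13 beside 6.2%. At 6 h 0 were called beside 0.246%, and 6 with the block beside 2.93%.

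Against PBS, which the LPS comparisons share as control, 3'SL with LPS had 6 H3K27ac regions called at 2 h beside 3.41% (24 with the block beside 19.4%), and 0 at 6 h beside 0.103% (6 with the block beside 4.62%). The 6 were Tnf −65 and +3059, Lta −14430, −4924 and −4617, and Tnfrsf1a −14, all higher, and 0 to 2 regions were called without any 1 library (0 without either combined library, 1 when PBS replicate 2 was left out and 2 when PBS replicate 1 was). For p300 the numbers were 4 beside 1.9% (10 with the block beside 6.78%) at 2 h and 0 beside 0.206% (6 with the block beside 1.8%) at 6 h. The 4 were the regions that LPS alone had called at 2 h, and leaving out 1 combined library left 1 or 2 regions called; under the authors' scaling or edgeR 0 were called. The difference between the LPS response with and without 3'SL was tested as an interaction and called at 0 of the 33 regions for either mark or time, beside 0% of all regions.

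3'SL without LPS called 0 of the 33 regions against PBS for either mark or time. Over all regions 0% were called, and with the block 0% for H3K27ac and for p300 at 6 h and 0.317% for p300 at 2 h, none of them members. At an unadjusted p under 0.05 there were 0 and 3 member regions for H3K27ac at 2 h and 6 h and 2 and 1 for p300, and the share of all regions there is not given here. For Tnf the H3K27ac difference was 0.03 ± 0.28 at 2 h and −0.27 ± 0.34 at 6 h. For Lta it was −0.25 ± 0.25 at 2 h and −0.71 ± 0.31 at 6 h, where both 3'SL libraries lay below the only PBS library. The interval of the latter, −1.39 to −0.038, leaves out 0 (unadjusted p = 0.0402; −0.75 and 0.014 with the block), but it was not called over all gene sums. In p300 the interval for Tnf at 6 h was below 0 with the block alone (−0.78, −1.53 to −0.029), and not called.

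The authors' peak lists of the nuclear receptor LXR and of SREBP come from macrophages given the LXR agonist GW3965 (1 µM, 18 h). Their p300 peak list names no treatment, and the labels hold p300 libraries with and without GW3965. Peaks of LXR, SREBP and p300 overlapped by at least 1 bp 14, 14 and 20 of the 33 windows of 200 bp. For all regions the shares were 22.5%, 22.2% and 34.1%, against 42.4%, 42.4% and 60.6% of the members. An LXR peak lay on the Tnf promoter region and LXR peaks on 3 of 4 Lta regions, 3 of 4 Tnfrsf1a regions and 7 of 22 Tnfrsf1b regions. The counts are of regions and not of peaks: the LXR peak at chr17:35210280-35210461 overlapped both Lta −5154 and Lta −4924. SREBP peaks lay on 1 Tnf, 1 Lta, 4 Tnfrsf1a and 8 Tnfrsf1b regions. The LXR and SREBP cells had another treatment and the p300 list names none, so the overlap places the peaks and says nothing about LPS or 3'SL.

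Genes around the receptors' signalling pathway were counted from lists. Of 35 genes of TNF receptor signalling, 34 were tested for H3K27ac at 2 h of LPS; 4 rose and 0 fell, where 5.8% of all gene sums were called, and the median was 0.57 beside 0.09 for all. With the block 16 were higher and 2 lower, beside 23.4% of all. The 4 were Traf2, the adaptor that TNF receptor 2 recruits, from 116 ± 6.67 to 645 ± 44.0 tags (SD, n = 2 each; 2.47 ± 0.23, adjusted p = 0.00101), Rhbdf2, which traffics the TNF-shedding protease (1.16, adjusted p = 0.0282), Tab2, an adaptor of the kinase TAK1 (1.49, adjusted p = 0.0302), and Adam17, that protease itself (0.90, adjusted p = 0.0418). For p300, 2 of 34 rose, Tnfaip3 (2.80 ± 0.45, adjusted p = 0.0105) and Nfkbia (1.68, adjusted p = 0.0397), both inhibitors of NF-kB signalling, beside 1.59% of all gene sums. The block gave 9, beside 8.68%, and the median was 0.70 beside 0.11. Between 3'SL with LPS and LPS, 0 were called.

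Of 39 other genes of the TNF and TNF receptor superfamilies, 33 were tested for H3K27ac. Cd40, a receptor of the same superfamily (3.36, adjusted p = 0.00273), and the death receptor gene Fas (1.92, adjusted p = 0.0384) rose and 0 fell; these 2 of 33 are near the 5.8% of all gene sums called. The median was 0.29, and with the block 9 were higher and 5 lower beside 23.4% of all. For p300, 30 were tested and 3 rose: Tnfrsf8 (2.88, adjusted p = 0.0157), Cd40 (4.10, adjusted p = 0.018) and Tnfsf4 (2.72, adjusted p = 0.0497), beside 1.59% of all. The block gave 8, beside 8.68%, and the median was 0.84. Of 8 genes beside Tnf on chromosome 17, 7 were tested and 0 called for either mark (2 higher with the block for H3K27ac), with medians of 0.33 and 0.54. The Tnfrsf8 gene holds 7 of the Tnfrsf1b regions, but its own sum leaves those out.

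Over the 15 H3K27ac libraries, the 5 genes of 16680 whose sums followed those of Tnf most closely were Mir155 (Pearson r = 0.974), Ptgs2os2 (0.968), Lao1 (0.966), Cdc42ep2 (0.965) and Tspyl3 (0.962). Lta ranked 79 (0.929), Tnfrsf1b 149 (0.909) and Tnfrsf1a 1665 (0.696). The libraries share treatments, times and replicates, and these coefficients are descriptions.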

How the data were processed

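Mouse macrophage libraries were compared by the authors' tables of H3K27ac and p300 signal over merged regions of open chromatin. Per the file headers, the deposited values are signal as tags per 10000000, counted by HOMER in windows of 1000 bp (H3K27ac) or 200 bp (p300) on mm10. Per the submitters' processing notes, Bowtie2, HOMER and DESeq2 were used, with neither version nor order stated. The deposited score of the ATAC peak list and the deposited peak positions, a plain unit of coordinates (other), served only for overlaps. Every value was a whole number of tags within 0.05, so tags were recovered. Columns that match no sample (13) were left out. The p65 peak list runs past the end of chromosome 1 in mm10 (195471971) and was not used, though its positions are among those of the tables over merged transcription factor peaks, tried as an alternative region set.

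Values were rescaled by tags in tested regions with TMM factors, and log2(value + 1) was fitted with limma 3.58.1 (trend, empirical Bayes; R 4.3.3) over all treatment groups of a mark, after edgeR's filterByExpr (77387 of 97113 regions kept for H3K27ac, 62225 for p300). Tests are two-sided with Benjamini-Hochberg adjustment over all regions or all gene sums. Residual degrees of freedom were 7 and 6. The scripts were tested on simulated data, where the fit with the replicate block made more false calls than its threshold allows for p300. Alternatives were edgeR 4.0.16, DESeq2 1.42.0, other scalings, filters, pseudocounts, region sets, left-out libraries and a replicate block.

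The replicate numbers pair the samples: libraries of the same number deviated together (lowest correlation 0.445 over 21 pairs of groups for H3K27ac, 0.196 over 15 for p300). Paired libraries of a group differed by more than sampling noise (chi-square per degree of freedom of 8.34 or more). Named regions are the one nearest each start, the highest-mean one and every called one; from the other lists, up to 4 called genes of smallest adjusted p. PCR duplicates were not marked by molecular identifiers, so counting intervals (95%, exact) and floors of 3 tags cover counting error only. The members and lists were chosen with earlier results of these data known.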

Additional observations from a re-analysis of the deposited data

How the results depend on the processing

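Each result was recomputed with other scalings, tools, filters, region sets and left-out libraries. No call of a difference between 3'SL with LPS and LPS arose under any of them, for regions or sums. With no block, LPS against PBS gave 11 H3K27ac member regions at 2 h and 1 at 6 h, 4 and 1 p300 regions, 3 and 0 H3K27ac gene sums and 1 and 0 p300 sums. With the replicate block these were 27 and 23, 10 and 7, 4 and 2, and 3 and 1. The comparisons of 3'SL with LPS against 3'SL or PBS moved likewise: the block raised H3K27ac regions from 7 to 29 and from 6 to 24 at 2 h, and from 1 to 26 and from 0 to 6 at 6 h. For p300 it raised them from 5 to 13 and from 4 to 10 at 2 h, and from 0 to 6 in both at 6 h. The block gave no call for 3'SL against PBS or between times. edgeR with the block gave 27 and 21 regions for H3K27ac, 9 and 8 for p300, and 1 gene sum for each mark at 6 h. edgeR without it gave 0 H3K27ac regions at 6 h, 0 p300 regions at either time and 0 p300 sums at 2 h. DESeq2 gave 18 and 11 H3K27ac regions, 6 p300 regions at 6 h and 1 H3K27ac sum at 6 h. Under the authors' scaling 6 H3K27ac regions were called at 2 h, 0 p300 regions at either time and 0 p300 sums; under library totals 7 H3K27ac regions at 2 h. A pseudocount of 5 left 0 p300 regions at 6 h, and regions within 10000 bp left 0 p300 sums at 2 h. Leaving out 1 library gave 2 to 4 H3K27ac regions at 2 h and 0 to 0 at 6 h, 1 to 2 p300 regions at 2 h and 0 to 0 at 6 h, 1 to 2 H3K27ac sums and 0 to 0 p300 sums at 2 h. The cause of these shifts was not tested.

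Directions reversed for uncalled sums alone. For p300 under LPS at 6 h, Tnf became −0.066 with the replicate block, −0.70 under the authors' scaling and −0.045 with edgeR and the block; Tnfrsf1a became 0.067 (DESeq2) and 0.050 (transcription factor regions, of which 1 of its 6 came from the p65 list alone), and −0.21 to 0.17 without 1 library; Tnfrsf1b became −0.023 (authors' scaling). For 3'SL with LPS against LPS in p300 at 2 h, Tnfrsf1b became −0.0054 (library totals), −0.000127 (DESeq2) and −0.038 (transcription factor regions). Without 1 library, the ranges were −1.38 to 0.12 for Tnf, −1.29 to 0.25 for Lta and −0.29 to 0.34 for Tnfrsf1b. At 6 h, Lta became 0.14 and Tnfrsf1b 0.26 under the authors' scaling. Without 1 library the ranges at 6 h were −0.39 to 0.46 for Tnf, −1.18 to 0.71 for Lta, −0.025 to 0.35 for Tnfrsf1a and −0.38 to 0.16 for Tnfrsf1b. In H3K27ac the same difference for Tnfrsf1b at 2 h ranged from −0.24 to 0.030 without 1 library. For p300 the only PBS library at 2 h held 0 to 4 tags at the 4 regions called there. Whether depth accounts for such low values was not tested.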

Other observations

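1 H3K27ac library titled PBS, replicate 1, carries no time and entered no comparison. On the authors' scale of tags per 10000000 its sums were 192 for Tnf, 375 for Lta, 262 for Tnfrsf1a and 2859 for Tnfrsf1b. The lowest of the 15 treatment libraries on that scale held 288, 590.1, 279.9 and 3539. Its tags summed over all windows came to 42.6% of the library, below the 53.9% of the lowest treatment library.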
